A study of Mus musculus with 9 samples.

Results

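The SALL genes, named after the fly gene spalt, were followed across 9 RNA sequencing libraries of mouse embryonic stem cells. Members were the rows of the count table with the symbol Sall1, Sall2, Sall3 or Sall4, 4 of 33924 genes, and all 4 passed the filter on low counts that kept 14772 genes for testing. SALL proteins are transcription factors with paired C2H2 zinc fingers, most of which carry a short motif at their start that recruits the NuRD complex, a nucleosome remodeller and histone deacetylase. SALL4 is required in the early embryo and is a standard factor of the pluripotent state, where it binds AT-rich DNA and occurs in complexes with OCT4 and NANOG. SALL1 is known from kidney and limb development, SALL2 from neural tissue and growth control, and SALL3 from cranial nerve and limb development. The family was selected on earlier results of these libraries, among them the high Sall3 level in the labelled MLL4 knockdown. The values of the 4 members in every comparison are therefore a description without a test. Their 95% intervals are not adjusted for the number of genes or for that selection. An interval that lies wholly above or below no difference is therefore not a test result.

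The cells were male embryonic stem cells on gelatin-coated plates in medium with serum and the cytokine LIF, without treatment. There were 3 libraries in each of 3 groups: wild type for UTX (titles with JM8A), knockout of UTX (titles with A6) and knockdown of MLL4 (titles with JM8A and a further number). UTX is the X-linked histone H3K27 demethylase encoded by Kdm6a, and MLL4 the enhancer H3K4 methyltransferase encoded by Kmt2d, listed here as Mll2. The series title places both in an enhancer network with the acetyltransferase p300. The labels give neither the deleted part of Kdm6a, nor the means of the knockdown, nor what A6 and that number stand for, so a difference of line or clone and the perturbation cannot be told apart. All 3 UTX knockout titles carry A6, and no label says whether replicates were grown apart, so the spread between them may be technical.

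Libraries held between 18570746 and 23874816 counts. Kdm6a stood at 57.1 to 90.6 CPM (counts scaled to a common library size with TMM factors) in wild type, 12.8 to 19.4 CPM in UTX knockout cells and 99.8 to 113 CPM in the labelled MLL4 knockdown. Mll2 stood at 43.5 to 119 CPM in wild type, 96.9 to 130 CPM in UTX knockout cells and 71.0 to 73.4 CPM in the labelled MLL4 knockdown. The knockdown range lay inside that of wild type, with a log2 difference of -0.20 (SE 0.27). Wild type spread too widely for these values to show whether the targeted transcript was reduced. Every labelled knockdown library lay below every UTX knockout library, with a log2 difference of -0.64 (SE 0.27). That difference did not pass edgeR's quasi-likelihood test (adjusted p = 0.0987). A knockdown is thus not established from the transcript, and directions drawn from the libraries labelled MLL4 knockdown rest on the label. All 10 stem cell markers examined were present in every group. Their summed levels were 5180 to 6220 CPM in wild type and, wholly above that, 6490 to 7080 in UTX knockout cells and 6510 to 7180 with the MLL4 label. Single markers did not all follow the sum. With the MLL4 label 4 rose and 2 fell by edgeR's quasi-likelihood test (adjusted p under 0.05), where 10.8% and 15.8% of tested genes did. Dppa5a, named after its values were seen, fell from a mean of 988 to 469 CPM. Summed levels of 10 trophectoderm markers were 145, 602 and 544 CPM in wild type replicates 1 to 3, against 128 to 180 in the UTX knockout and 90.4 to 106 in the labelled MLL4 knockdown. Summed levels of 10 feeder or fibroblast markers were 48.7, 233 and 171 CPM in wild type, 16.8 to 31.8 in UTX knockout cells and 20.7 to 23.2 in the labelled MLL4 knockdown. Summed levels of 9 neural progenitor markers were 164 to 208 CPM, 90.8 to 113 and 188 to 204 in the 3 groups. The like sums of wild type and the labelled knockdown hide opposite members. Of 8 tested, 2 rose and 2 fell there by the same test, where 10.8% and 15.8% of all tested genes did. Olig2 rose from a mean of 20.5 to 105 CPM and Nes fell from 60.5 to 6.64, both named after their values were seen. Those of 10 primitive endoderm markers were 321 to 689, 574 to 931 and 399 to 522. The members Cdx2 and Elf5 of trophectoderm, Sox17 and Foxa2 of endoderm, Col3a1, Dcn and Lum of fibroblasts, and Pax3 and Zic1 of neural progenitors averaged under 1 CPM in all 3 groups. Other members of these lists were abundant in wild type, among them Krt18 (mean 148 CPM), Krt8 (134), Lama1 (106), Tagln (97.5), Tubb3 (70.9), Tfap2c (70.2) and Nes (60.5), named here after their values were seen. The part of such cells in the results below was not tested.

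Relative to wild type, the 4 genes went 4 different ways. Sall3 was higher in both perturbed groups, 1.87-fold in the UTX knockout and 6.30-fold in the labelled MLL4 knockdown. Sall2 was lower in both, at 44.7% and 39.5% of the wild type level. Sall1 was lower in the UTX knockout, at 67.5%, and higher in the labelled MLL4 knockdown, 1.30-fold. Sall4, the most abundant member, overlapped wild type in both. The UTX knockout libraries lay wholly apart from wild type for 3 of 4 members, 1 above and 2 below, where 31.5% of all tested genes lay apart (15.5% above, 16.0% below). For the labelled MLL4 knockdown 3 of 4 members lay apart, 2 above and 1 below, where 42.9% of tested genes did (20.5% above, 22.4% below). Between the perturbed groups 2 of 4 members lay apart, both higher in the labelled knockdown, where 52.6% of tested genes did (25.7% higher, 26.9% lower). These shares are the background of counts that the choice of the family used. Both comparisons with wild type use the same 3 wild type libraries. The median difference over the 4 members was -0.38 on the log2 scale in the UTX knockout and 0.14 in the labelled MLL4 knockdown, and over all tested genes it was -0.01 and -0.02. In bulk RNA, fewer cells that express a gene and less RNA per cell cannot be told apart.

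**Figure D1:**
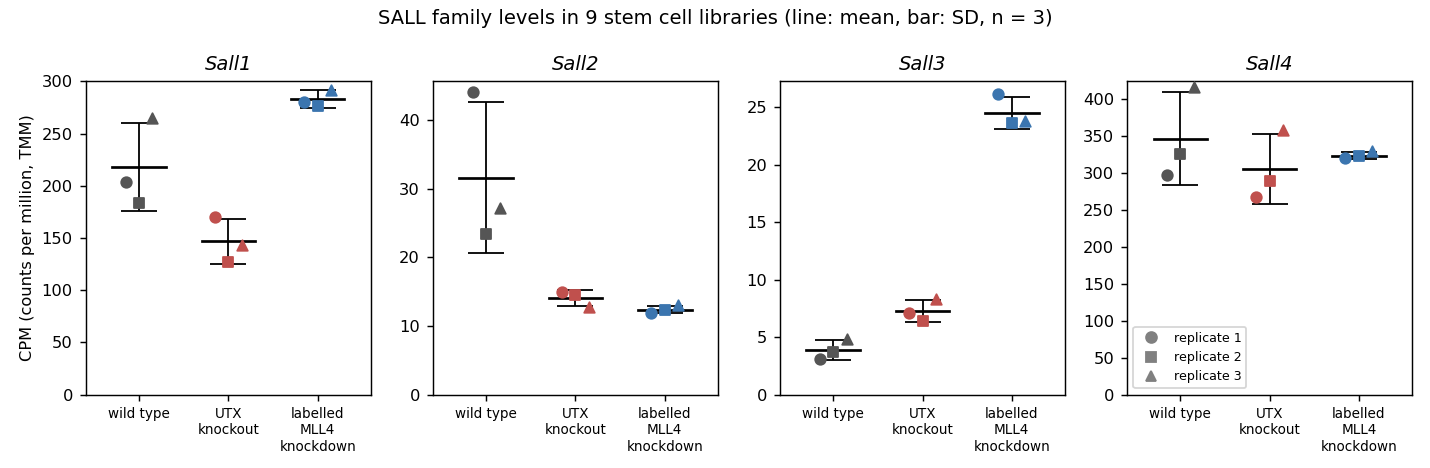
CPM of Sall1, Sall2, Sall3 and Sall4 (vertical axes, each from 0) in the 9 libraries by group; symbols mark replicates 1 to 3, the long line the mean and the bar the SD. Sall3 reaches 23.6 to 26.1 CPM in the labelled MLL4 knockdown against 3.06 to 4.84 in wild type, and the 3 groups of Sall4 overlap.

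Compared per length of exon sequence, the family had a steep order of abundance in wild type cells. Levels per kilobase were 62.6 CPM ± 11.3 (SD, n = 3) for Sall4, 41.4 ± 8.05 for Sall1, 5.81 ± 2.02 for Sall2 and 0.517 ± 0.120 for Sall3. No neighbours in this order overlapped, the closest being Sall1 with a highest library of 50.4 CPM per kilobase and Sall4 with a lowest of 53.6. Sall4 lay above 95.1% of tested genes of known length, Sall1 above 91.8%, Sall2 above 54.9% and Sall3 above 14.5%. In the UTX knockout the order was the same, with levels per kilobase of 55.2 CPM ± 8.51, 27.9 ± 4.11, 2.59 ± 0.206 and 0.969 ± 0.129. In the labelled MLL4 knockdown the lower pair changed places: Sall3 stood at 3.27 CPM per kilobase ± 0.185 and Sall2 at 2.29 ± 0.0952, with the lowest Sall3 library at 3.15 and the highest Sall2 library at 2.39. There Sall3 lay above 42.9% of tested genes. Exon lengths came from GENCODE gene models for GRCm38, which may differ from those the authors counted on, and a gene with many models, such as Sall4 with 7, has an uncertain length.

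Sall4 is the family member most closely tied to pluripotency, and its transcript had overlapping levels in the 3 groups. It stood at 297, 326 and 417 CPM in wild type replicates 1 to 3, at 268, 290 and 358 in the UTX knockout, and at 321, 323 and 330 in the labelled MLL4 knockdown. All 3 groups overlapped, and replicate 3 was the highest library of each. Same-numbered libraries differed by -0.15, -0.17 and -0.22 on the log2 scale for UTX knockout minus wild type, lower in 3 of 3 pairs, and by 0.11, -0.02 and -0.34 for the labelled knockdown minus wild type. The log2 difference from wild type was -0.18 (SE 0.14, 95% interval -0.50 to 0.14) in the UTX knockout and -0.10 (SE 0.14, -0.41 to 0.22) in the labelled MLL4 knockdown. Without wild type replicate 3 these were -0.03 and 0.06. The intervals do not show that the groups were equal. An antisense gene, Gm14261, overlaps 526 bases of Sall4 exons in the GENCODE models. It had 1 to 5 counts per library against 5460 to 9312 for Sall4.

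Sall1, which in the kidney holds nephron progenitors in their undifferentiated state, parted the perturbed groups. It stood at 204, 184 and 265 CPM in wild type replicates 1 to 3, at 170, 127 and 143 in the UTX knockout, and at 280, 276 and 292 in the labelled MLL4 knockdown. Every UTX knockout library lay below every wild type library, and every labelled knockdown library above. The log2 difference from wild type was -0.57 (SE 0.15, 95% interval -0.89 to -0.24) in the UTX knockout and 0.38 (SE 0.15, 0.05 to 0.70) in the labelled MLL4 knockdown. Between the perturbed groups it was 0.94 (SE 0.15, 0.62 to 1.27), a 1.92-fold higher level in the labelled knockdown. Without wild type replicate 3, the highest of its group, the differences from wild type were -0.40 and 0.55, and without wild type replicate 2 they were -0.67 and 0.27. Same-numbered libraries differed from wild type by -0.26, -0.53 and -0.89 for the UTX knockout and by 0.46, 0.58 and 0.14 for the labelled knockdown. The shared direction of these pairs follows from groups that do not overlap.

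The chromosome that carries Sall1 differed as a whole between wild type and the other groups. Over the other 772 tested genes of chromosome 8, the median log2 difference from wild type was -0.44 in the UTX knockout and -0.42 in the labelled MLL4 knockdown, and it was 0.02 between the perturbed groups. Against wild type 35.4% of these genes had a lower value than Sall1, whose distance from the chromosome median was -0.12, in the UTX knockout. In the labelled MLL4 knockdown 96.1% had a lower value, and Sall1 stood 0.79 above the median. Between the perturbed groups 95.6% had a lower value, and the distance was 0.93. The position of Sall1 below wild type in the UTX knockout was thus close to that of its chromosome, while its level in the labelled knockdown was not. Relative to the chromosome median of the same library, Sall1 stood at -0.29, -0.49 and 0.08 in wild type, at -0.13, -0.52 and -0.41 in the UTX knockout, and at 0.56, 0.53 and 0.60 in the labelled MLL4 knockdown, all on the log2 scale around the mean of 9 libraries. On that scale the UTX knockout and wild type overlapped. The 10 tested genes nearest to Sall1 had a median of -0.47 in the UTX knockout, where 4 fell and 0 rose (edgeR's quasi-likelihood test, Benjamini-Hochberg adjusted over 14772 genes, threshold 0.05, against 8.92% and 6.55% of tested genes). Their median was -0.27 in the labelled knockdown, where 2 fell and 0 rose (15.8% and 10.8%). Between the perturbed groups their median was 0.30, and 5 rose and 1 fell in the labelled knockdown (13.0% and 16.0%). Over all 773 tested genes of chromosome 8, 36% fell in the UTX knockout and 40.9% in the labelled knockdown against wild type. Between the perturbed groups 14% of them fell in the labelled knockdown. The part of the chromosome in the Sall1 values was not tested. Chromosomes 14, 18 and 2, which carry Sall2, Sall3 and Sall4, had medians between 0.00 and 0.06 in the 3 comparisons. Chromosome 4 had medians of -0.15 (UTX knocked out) and -0.21 (labelled knockdown) against wild type. All 4 tested genes of the Y chromosome fell in both perturbed groups, with medians of -3.93 and -4.18, although the protocol calls the cells male.

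**Figure D2:**
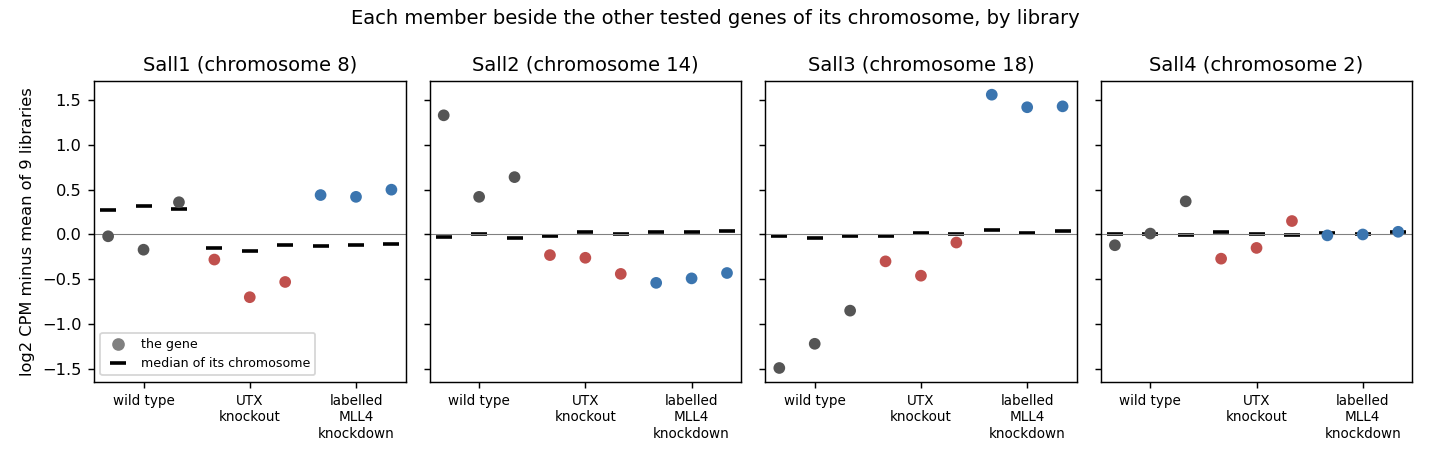
Log2 CPM of each member minus its mean over 9 libraries (points, coloured by group) and the median of the same quantity over the other tested genes of its chromosome (black dashes), library by library in replicate order within a group. The dashes of chromosome 8 lie at 0.27 to 0.32 in wild type and at -0.18 to -0.11 in the other 6 libraries, and those of the other chromosomes stay near 0.

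Sall2, a member associated with growth arrest and neural development, was lower in both perturbed groups and had the least even wild type level. It stood at 44.1, 23.4 and 27.2 CPM in wild type replicates 1 to 3, at 14.9, 14.5 and 12.8 in the UTX knockout, and at 11.9, 12.4 and 13.0 in the labelled MLL4 knockdown. Neither perturbed group overlapped wild type, and they overlapped each other. Log2 differences from wild type were -1.16 (SE 0.21, 95% interval -1.62 to -0.71) and -1.34 (SE 0.21, -1.80 to -0.88), and between the perturbed groups -0.18 (SE 0.21, -0.64 to 0.28). Wild type replicate 1 carried the highest Sall2 level and the lowest summed feeder and trophectoderm markers of its group. Without it the differences from wild type were -0.83 and -1.01, with the perturbed libraries still below both others. The wild type coefficient of variation of Sall2 was 34.8%, against 18.1% to 23.2% for the other members.

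Upstream windows were matched for Sall1 and Sall2, both with UTX knockout libraries wholly below wild type, and are shown so that their starts can be compared. The windows are the 250 bases before a transcript start in RefSeq (GRCm38.p6, minus strand), printed 5′ to 3′, with each CG dinucleotide, the target of DNA methylation, in capitals. The Sall1 window, chr8:89044163-89044412, precedes the most upstream start and overlaps no annotated exon of the gene. The Sall2 window, chr14:52316324-52316573, precedes the internal start, inside an intron of the longer transcript.
Sall1: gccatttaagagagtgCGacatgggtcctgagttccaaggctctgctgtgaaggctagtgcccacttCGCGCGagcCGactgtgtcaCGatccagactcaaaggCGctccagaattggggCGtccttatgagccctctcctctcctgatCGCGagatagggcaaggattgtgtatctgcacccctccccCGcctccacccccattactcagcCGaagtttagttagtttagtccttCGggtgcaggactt
Sall2: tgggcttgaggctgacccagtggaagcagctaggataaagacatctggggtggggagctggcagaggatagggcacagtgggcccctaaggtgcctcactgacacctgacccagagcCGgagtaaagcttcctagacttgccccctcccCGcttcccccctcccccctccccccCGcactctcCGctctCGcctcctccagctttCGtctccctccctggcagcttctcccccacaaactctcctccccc
The letters CG, which read the same on both strands, occurred 13 times in the Sall1 window, and 31.5% of 32851 such windows held at least as many. They occurred 6 times in the Sall2 window, the median count of all windows, and 50.4% held at least as many. At least 1 CG occurred in 92.1% of windows. The 2 further Sall1 starts had 25 and 30 CG, counts reached by 10.7% and 5.90% of windows. The distal Sall2 start had 0, in a window that overlaps 92 bases of an annotated exon of the gene. Sall2 thus has a start with CG and a start without, and Sall1 has 3 listed starts with increasing counts along the direction of transcription. The GENCODE models used for exon lengths hold only 1 transcript of Sall1. The printed windows are a most upstream and an internal start, so their counts are not of like starts. Counts per gene do not tell which start was used.

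Sall3, the family member of lowest level in wild type, had the largest difference from wild type in the labelled MLL4 knockdown, while in the UTX knockout that of Sall2 was larger in size. It stood at 3.06, 3.71 and 4.84 CPM in wild type replicates 1 to 3 (59, 87 and 108 counts), at 7.12, 6.36 and 8.27 in the UTX knockout (145, 147 and 178 counts), and at 26.1, 23.6 and 23.8 in the labelled MLL4 knockdown (485, 521 and 538 counts). The 3 groups formed 3 separate steps without overlap, wild type below the UTX knockout below the labelled knockdown. Log2 differences from wild type were 0.90 (SE 0.19, 95% interval 0.49 to 1.31) and 2.66 (SE 0.19, 2.25 to 3.07), and between the perturbed groups 1.76 (SE 0.18, 1.37 to 2.15). By log2 difference Sall3 ranked 29 from the top of 14772 tested genes in the labelled knockdown and 501 in the UTX knockout. Leaving out each library in turn kept the difference between 2.54 and 2.85 in the labelled knockdown and between 0.78 and 1.09 in the UTX knockout. Same-numbered pairs gave 1.19, 0.76 and 0.76 for UTX knockout minus wild type and 3.05, 2.64 and 2.28 for the labelled knockdown minus wild type.

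**Figure D3:**
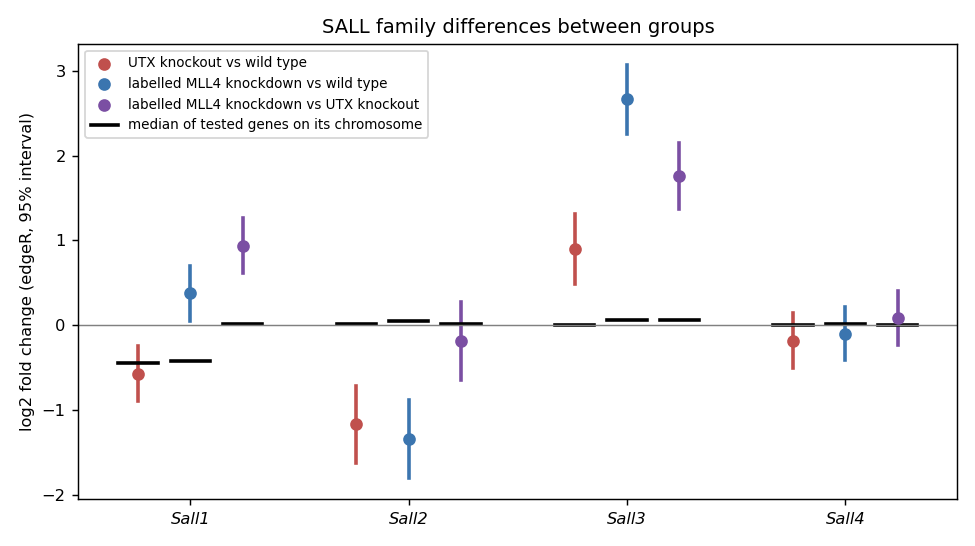
Log2 fold changes of the 4 members with 95% intervals in the 3 comparisons (colours), and the median of the tested genes on each member's chromosome (black dashes). Sall3 reaches 2.66 in the labelled MLL4 knockdown, and Sall1 lies at -0.57 and 0.38 against wild type. Sall4 lies at -0.18, -0.10 and 0.09 in the 3 comparisons.

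The summed level of the family was lower in the UTX knockout, and the small share held by Sall3 differed between all 3 groups without overlap. Summed over the 4 members, the level per kilobase was 110 CPM ± 18.3 (SD, n = 3) in wild type, 86.7 ± 7.89 in UTX knockout cells and 118 ± 2.43 in the labelled MLL4 knockdown. The UTX knockout libraries (80.1 to 95.4) lay below those of wild type (98.7 to 131), and the labelled knockdown (116 to 121) lay within the wild type range. Within the sum, means in wild type and the UTX knockout were 41.4 and 27.9 CPM per kilobase for Sall1 and 62.6 and 55.2 for Sall4. Sall1 there lay close to the median of chromosome 8, and the part of that chromosome in the sum was not tested. Sall4 and Sall1 together made up the bulk: Sall4 held 56.7% ± 3.32 of the sum in wild type, 63.5% ± 5.49 in UTX knockout cells and 49.7% ± 0.396 in the labelled knockdown, and Sall1 held 37.4% ± 1.71, 32.3% ± 5.21 and 45.5% ± 0.414. The share of Sall2 was 5.41% ± 2.30, 3.02% ± 0.477 and 1.94% ± 0.0530, and that of Sall3 was 0.467% ± 0.0527, 1.11% ± 0.0499 and 2.78% ± 0.182.

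Ratios of raw counts within a library do not depend on scaling between libraries. The log2 ratio of Sall1 to Sall4 averaged -0.67 ± 0.14 (SD, n = 3) in wild type, -1.06 ± 0.35 in UTX knockout cells and -0.20 ± 0.02 in the labelled MLL4 knockdown. The labelled knockdown lay above all other libraries, while the UTX knockout overlapped wild type, since its replicate 1 stood at -0.66. The log2 ratio of Sall3 to Sall4 was -6.50 ± 0.09, -5.40 ± 0.14 and -3.73 ± 0.09, in 3 groups without overlap. That of Sall2 to Sall4 was -3.50 ± 0.65, -4.43 ± 0.33 and -4.71 ± 0.04, with both perturbed groups below wild type. The log2 ratio of Sall3 to Sall2 counts lay between -3.85 and -2.49 in wild type, between -1.19 and -0.63 in the UTX knockout, and between 0.88 and 1.13 in the labelled knockdown.

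**Figure D4:**
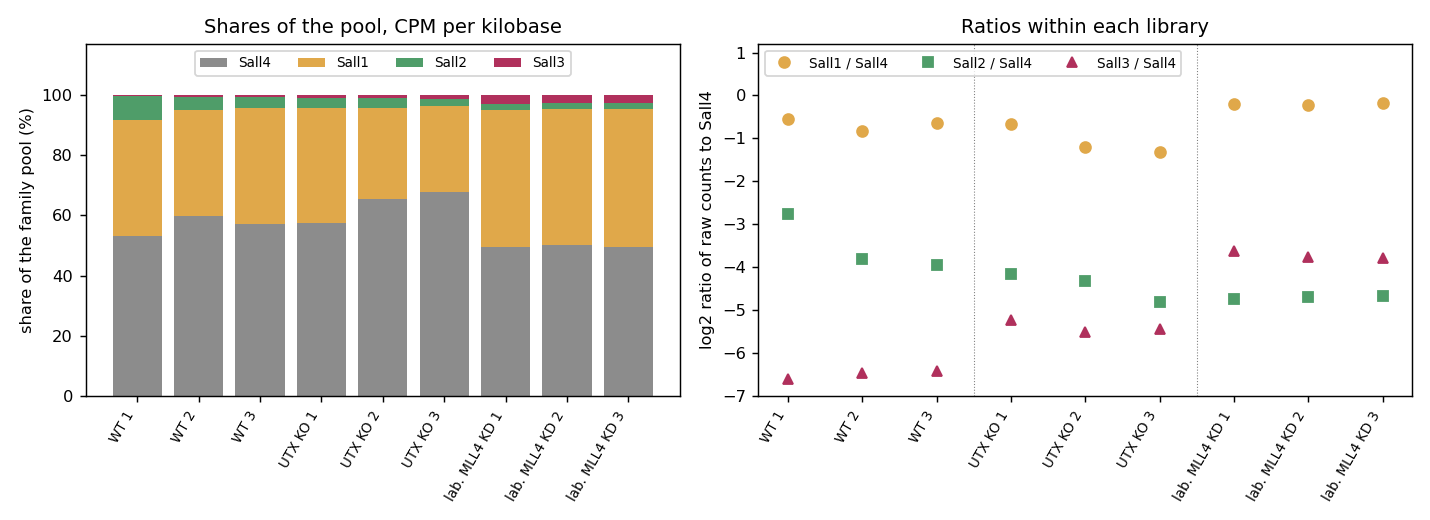
Left, share of each member in the summed level per kilobase of exon (percent) in each library; right, log2 ratio of the raw counts of Sall1, Sall2 and Sall3 to those of Sall4, with dotted lines between groups. The Sall3 ratio steps from about -6.50 in wild type to -5.40 and -3.73, and crosses that of Sall2 in the labelled MLL4 knockdown.

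Across the 9 libraries the members did not share a pattern. Pearson's r of log2 CPM was -0.80 for Sall2 with Sall3, 0.56 for Sall1 with Sall3, 0.37 for Sall1 with Sall4, and between -0.02 and 0.11 for the other pairs. These values describe 9 libraries in 3 groups. In each group replicates 1 and 3 came from lane 2 and replicate 2 from lane 1. Among 9984 candidate genes, those most like Sall3 were Zeb1, a zinc finger repressor of epithelial genes (r = 0.983), Gli2, a Hedgehog transcription factor (0.983), Vash1, an angiogenesis inhibitor (0.982), Tmem127, a lysosomal membrane protein (0.982), and Grb10, an insulin receptor adaptor (0.979). Group means of these 5 genes had the same order as Sall3, as for Gli2 with 38.6, 71.6 and 220 CPM in wild type, UTX knockout and labelled knockdown. That order follows from picking genes by likeness over the same libraries. Most like Sall1 were Zc3h4, a zinc finger protein of transcription termination (0.989), the coactivator Pprc1 (0.983), cyclin D1, Ccnd1 (0.979), and the bromodomain protein Brd2 (0.979). Ccnd1 stood at 96.9, 62.0 and 156 CPM in the same order of groups. Most like Sall2 were the ankyrin protein Ankrd6 (0.972), ceramide kinase, Cerk (0.964), Gpbp1l1 (0.962), Dcaf10 (0.961) and the mitochondrial aminotransferase Got2 (0.958). Chromosomes 8 and 4, as given above, had medians below wild type in both perturbed groups. Their part in the likeness to Sall2 was not tested. Most like Sall4 were Fam100a (0.941), the DNA repair protein Rad23b (0.928), the splicing protein Snrpf (0.928), Cherp (0.897) and Zfp219 (0.895). An r above 0.9 was reached by 2.05% of candidates for Sall3, 2.06% for Sall1, 0.621% for Sall2 and 0.0300% for Sall4.

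The NuRD subunits, the corepressor partners of SALL proteins, had 1 called difference in the UTX knockout and 4 in the labelled MLL4 knockdown. All 15 were tested, by edgeR's quasi-likelihood test with Benjamini-Hochberg adjustment over all genes, as for every list below. The UTX knockout had 1 subunit that fell and 0 that rose, where 15.5% of all tested genes changed, and the median log2 fold change was -0.07 against -0.01 over all genes. That 1 was Gatad2a, a zinc finger subunit, at -0.53 (SE 0.12, adjusted p = 0.0143; 0.0677 without UTX knockout replicate 2), and it lies on chromosome 8, whose median was -0.44. UTX knockout values of the 14 others lay between -0.57 (Cdk2ap1) and 0.58 (Gatad2b), named here for being the ends of that range. In the labelled knockdown 3 fell and 1 rose, where 26.6% of tested genes changed, and the median was -0.04 against -0.02. The deacetylase Hdac1 fell from a mean of 341 to 230 CPM (-0.57, SE 0.09, adjusted p = 0.00149), and the remodeller Chd5 fell by 0.78 (SE 0.20, adjusted p = 0.0141). The histone chaperone Rbbp7 fell by 0.37 (SE 0.10, adjusted p = 0.0202), and Mta2, a scaffold subunit, rose by 0.34 (SE 0.11, adjusted p = 0.0330). Between the perturbed groups 2 fell and 0 rose, where 28.9% of tested genes changed. With the replicate number as a block, 2 subunits changed in the UTX knockout, with Cdk2ap1 added (adjusted p = 0.0144). That fit called 3446 of all 14772 tested genes there. Mta3 was added in the labelled knockdown (-0.48, adjusted p = 0.0215), where the same fit called 5037 of all tested genes. The calls of Chd5, Rbbp7 and Mta2 ended when single libraries were left out, with adjusted p up to 0.0600 (labelled knockdown replicates 2 or 3), 0.0867 (replicates 1, 2 or 3) and 0.111 (replicates 1, 2 or 3, or wild type replicate 1). Chd4, the main remodeller of stem cells, and Rbbp4 were the most abundant subunits without a call, at 714 and 557 CPM in wild type, with log2 fold changes of 0.26 and -0.12 in the labelled knockdown.

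Several pluripotency factors purified with SALL4 or OCT4 rose in the labelled MLL4 knockdown. Of 15 tested, 7 rose and 2 fell there, where 10.8% and 15.8% of tested genes did, with a median log2 fold change of 0.51 against -0.02. Among the same 15, 2 rose and 2 fell in the UTX knockout, where 6.55% and 8.92% did, with a median of 0.26 against -0.01. Tfcp2l1 (listed as Tcfcp2l1), a naive pluripotency factor, rose in both, by 1.40 (SE 0.24, adjusted p = 0.00417) in the UTX knockout and by 1.89 (SE 0.24, adjusted p = 0.000327) in the labelled knockdown. In the labelled knockdown Klf4 rose from a mean of 211 to 582 CPM (1.47, SE 0.18, adjusted p = 0.000261), the nuclear receptor Esrrb from 567 to 964 (0.77, SE 0.14, adjusted p = 0.00217) and Nanog from 529 to 839 (0.67, SE 0.12, adjusted p = 0.00256). The orphan receptor Nr0b1 rose by 1.29 (adjusted p = 0.0127; 0.0519 without labelled knockdown replicate 2). Zfp42 fell in both, by 0.49 (adjusted p = 0.0354) and 0.75 (adjusted p = 0.00294), as did the BTB factor Nacc1, by 0.40 in each (adjusted p = 0.0371 and 0.0239). Zfp42 and Nacc1 lie on chromosome 8, where the median was -0.44 and -0.42, and its part in these falls was not tested. The T-box factor Tbx3 rose in both, by 0.91 (adjusted p = 0.0442) and 0.90 (adjusted p = 0.0324). The calls of Nacc1 and Tbx3 in both comparisons, and of Zfp42 in the UTX knockout, were close to the threshold. Leaving out any 1 of 4 to 7 of the 9 libraries ended each, with adjusted p up to 0.154. For the UTX knockout calls these included libraries of the labelled knockdown, which that comparison does not contrast. Pou5f1, which encodes OCT4, and Sox2 were the most abundant without a call in either comparison, at means of 896 and 407 CPM in wild type, with log2 fold changes of 0.24 and 0.09 in the labelled knockdown. Without wild type replicate 2, Pou5f1 passed in both comparisons (0.52, adjusted p = 0.0383, and 0.50, adjusted p = 0.0300), as it did with the length trend removed and the replicate block (adjusted p = 0.0143 and 0.0101). With the replicate block alone, Esrrb (adjusted p = 0.0201) and Klf5 (adjusted p = 0.0455) also rose in the UTX knockout and Klf5 (adjusted p = 0.00269) in the labelled knockdown, and Klf5 is named after its values were seen.

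Lineage genes tied to SALL4 moved in both directions. SALL4 is known to restrain the trophectoderm gene Cdx2 in stem cells and to act in primitive endoderm. Of 12 genes 11 were tested. Against wild type 2 rose and 3 fell in the UTX knockout, where 6.55% and 8.92% of tested genes did, with a median of 0.15 against -0.01. For the labelled MLL4 knockdown 2 rose and 3 fell, where 10.8% and 15.8% did, with a median of 0.36 against -0.02. The keratins Krt8 and Krt18 fell in both: Krt18 from a mean of 148 CPM in wild type to 18.3 in the UTX knockout (-3.02, SE 0.57, adjusted p = 0.00661) and 9.83 in the labelled knockdown (-3.91, SE 0.60, adjusted p = 0.000956). Pdgfra, a growth factor receptor of primitive endoderm, rose from 1.25 CPM to 2.72 (1.13, SE 0.23, adjusted p = 0.00903) and 7.48 (2.59, SE 0.23, adjusted p = 2.91e-05). In the labelled knockdown the endoderm factor Gata6 rose to 2.71 CPM (1.52, SE 0.29, adjusted p = 0.00344) and the trophoblast factor Ascl2 fell to 1.41 CPM (-1.95, SE 0.38, adjusted p = 0.00344). Gata4 rose in the UTX knockout by 0.65 (adjusted p = 0.0304) and Cdx2 fell by 2.82, from 0.781 to 0.108 CPM with overlapping groups (adjusted p = 0.0394). The calls of Gata4 and Cdx2 ended without single libraries, 6 and 7 of the 9, with adjusted p up to 0.114 and 0.132. The same libraries carry the unequal trophectoderm and feeder marker sums given above. Krt8, Krt18 and Cdx2 are themselves among those trophectoderm markers, so that sum is not separate from their values. Eomes and Gata4 were the most abundant without a call in the labelled knockdown, at 14.4 and 7.61 CPM.

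Partners of SALL1 and SALL4 in kidney and limb were mostly scarce. Of 20 genes 14 were tested, and Osr1, Hoxa11, Hoxd11, Gdnf, Tbx5 and Hand2 did not pass the filter on low counts. Of the 14, 2 rose and 1 fell in the UTX knockout, where 6.55% and 8.92% of tested genes did, with a median of 0.06 against -0.01. The labelled MLL4 knockdown had 2 that rose and 3 that fell, where 10.8% and 15.8% did, with a median of -0.05 against -0.02. Fgf10, a limb bud growth factor, rose in both, from 1.34 CPM to 2.74 (1.03, SE 0.21, adjusted p = 0.00963) and 5.86 (2.12, SE 0.21, adjusted p = 6.16e-05). The nephron progenitor factor Wt1 fell in the UTX knockout from 3.45 to 0.645 CPM (-2.42, SE 0.46, adjusted p = 0.00665). In the labelled knockdown Eya1, a coactivator of sine oculis homeobox factors, rose from 2.03 to 5.35 CPM (1.40, SE 0.21, adjusted p = 0.000900), while Tbx4 fell by 2.37 (SE 0.31, adjusted p = 0.000346) and Cited1 fell by 2.23 (SE 0.45, adjusted p = 0.00421). Kif26b, a direct target of SALL1 in kidney, rose in the UTX knockout by 1.32 (adjusted p = 0.0370), and the receptor gene Ret fell in the labelled knockdown by 1.29 with overlapping groups (adjusted p = 0.0442). The calls of Kif26b and Ret ended without single libraries, 5 and 7 of the 9, with adjusted p up to 0.128 and 0.154. Six4 and Gli3 were the most abundant genes of this list without a call, at 45.2 and 27.8 CPM in wild type. With the replicate block Zbtb16 also rose in the UTX knockout (1.80, adjusted p = 0.0401), named after its values were seen.

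**Figure D5:**
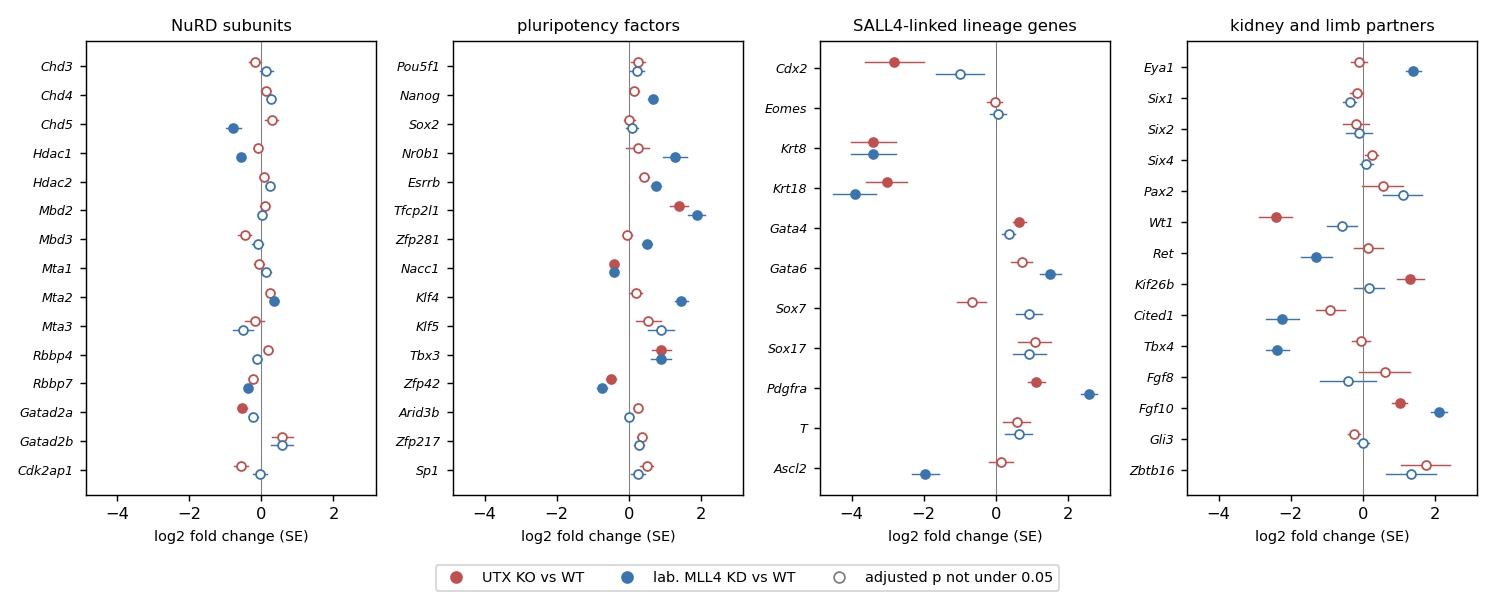
Log2 fold changes against wild type with 1 SE for the tested genes of the 4 partner lists, in the UTX knockout (red) and the labelled MLL4 knockdown (blue); filled points passed an adjusted p of 0.05. NuRD subunits lie between -0.78 and 0.58, while Krt8 and Krt18 lie at or below -3.02 in both comparisons.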

How the data were processed

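RNA of 9 mouse stem cell libraries was measured by sequencing after preparation with a TruSeq kit, per the labels' protocols. The authors deposited raw counts per gene symbol, 1 column per library, and each column was assigned by its title. The submitters' processing notes list STAR 2.4, HTSeq 0.6.1, mm9 and hg19, with no role for either build. The annotation and the strand setting of the counting are not stated there.

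From the counts, edgeR 4.0.16 in R 4.3.3 fitted all 9 libraries with a term for group (filterByExpr, TMM, quasi-likelihood test, two-sided, with Benjamini-Hochberg adjustment over all genes of a comparison and a threshold of 0.05), which was also tested on simulated data. With 3 libraries against 3, exact permutation reaches p = 0.1 at the lowest. The likeness of genes used log2 CPM with a prior count of 2. The members and lists were chosen with earlier results of these data known. Named genes were the members, the targeted genes, list genes past the threshold (up to 6 per list and comparison by p) with up to 2 abundant others, the 5 genes most like each member (1 of those for Sall1 is not reported here), and direct neighbours on the chromosome. A planned list of proteins that share the NuRD-binding letters is not analysed here. RefSeq (GRCm38.p6) names matched 25023 of 33924 table symbols as current and 3034 as older symbols, and 31078 had a GENCODE exon length. Alternatives were other scaling, DESeq2 1.42.0, other filters, fewer samples, a replicate block and removal of length trends. Replicates 1 and 3 came from lane 2 and replicate 2 from lane 1, per the labels. Deviations from group means correlated between 0.168 and 0.467 across genes for same-numbered pairs of libraries. For pairs of different numbers they correlated between -0.412 and 0.226. Such deviations sum to 0 within a group of 3, which lowers the pairs of different numbers, so these ranges do not establish a pairing. Replicates of every group differed by more than counting noise, with chi-square values of 6.89 to 61.6 per degree of freedom. With total counts between 18570746 and 23874816, the lowest member count was 59.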

Additional observations from a re-analysis of the deposited data

How the results depend on the processing

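Over 18 alternatives, of which 9 leave out 1 library each, Sall3 ranged from 0.78 to 1.09 against wild type for UTX and from 2.54 to 2.85 for the labelled MLL4 knockdown on the log2 scale, Sall2 from -1.36 to -0.83 and from -1.51 to -1.01, Sall1 from -0.68 to -0.40 and from 0.27 to 0.55, and Sall4 from -0.29 to -0.03 and from -0.18 to 0.06, which crosses 0. Between the perturbed groups Sall1 ranged from 0.85 to 1.06, Sall3 from 1.67 to 1.86, Sall2 from -0.24 to -0.14 and Sall4 from 0.00 to 0.22. In lane 2 alone the values were -0.58, -1.36, 0.95 and -0.19 for Sall1 to Sall4 with UTX knocked out, against 0.29, -1.51, 2.65 and -0.13 for the labelled knockdown, and lane 1 holds 1 library per group.

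Counts of called genes depended more on the setting. In the UTX knockout 2285 genes were called, 3446 with the replicate block, 4140 with the length trend removed as well, 1240 from only those 2 groups and 74 in lane 2 alone. The labelled knockdown had 3930 and 1341 in lane 2 alone, and the comparison of the perturbed groups 4275 and 1535. Leaving out each library in turn gave 833 to 2854, 2273 to 4108 and 2556 to 5281, with the lowest counts without UTX knockout replicate 2, labelled knockdown replicate 2 and UTX knockout replicate 2. Partner list genes called numbered 13, 23 and 17 in the 3 comparisons. In lane 2 alone edgeR called 0, 12 and 7 of them. There 15 of 55 list genes had an unadjusted p under 0.05 in the UTX knockout, and DESeq2, a tool added for this count after seeing the data, called 4. List calls numbered 7 from only the 2 groups of the UTX knockout comparison, 22 there with the length trend removed and the replicate block, and 7 between the perturbed groups with the stricter filter (100 counts). Leaving out libraries gave 6 to 14, 15 to 24 and 10 to 20, and 6 of 13, 15 of 23 and 10 of 17 calls held in all 9 such fits. All 13, 23 and 17 held with the replicate block, which called 17, 25 and 22. Over all 14772 tested genes the block called 3446, 5037 and 5417. NuRD subunits Chd3, Rbbp4, Gatad2a and Cdk2ap1 were added by it between the perturbed groups. The causes of these shifts were not tested beyond the smaller number of libraries that some settings use. Depth limits Sall3 in wild type most, at 59 to 108 counts.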

Other observations

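The direct chromosomal neighbours of Sall2 and Sall3, in RefSeq gene order, had smaller differences from wild type than these members in the labelled MLL4 knockdown, and that of Sall4 had larger ones. Atp9b, a phospholipid transporter next to Sall3, had means of 31.5, 32.0 and 40.7 CPM in wild type, with UTX knocked out and in the labelled MLL4 knockdown. Its log2 fold change in the labelled knockdown was 0.37 (SE 0.11, edgeR adjusted p = 0.0300; 0.277 with the transcript length trend removed), against 2.66 for Sall3. It was also lost on leaving out wild type replicate 1 (0.0597) or labelled knockdown replicate 1, 2 or 3 (0.0746, 0.112 and 0.0676). Its paralog Atp9a lies next to Sall4 and had means of 49.1, 64.4 and 40.7 CPM, with log2 fold changes of 0.39 (adjusted p = 0.173; 0.0307 with the replicate block) and -0.27 (adjusted p = 0.312) against wild type, where Sall4 had -0.18 and -0.10. Against the UTX knockout, Atp9a fell in the labelled knockdown (-0.66, SE 0.18, adjusted p = 0.0213), against 0.09 for Sall4. That call was lost without UTX knockout replicate 2 or 3 (0.0585 and 0.0807) or labelled knockdown replicate 1 or 3 (0.0873 and 0.0617). Mettl3, the RNA methyltransferase gene next to Sall2, had means of 41.1, 37.7 and 42.6 CPM, with log2 fold changes of -0.13 (adjusted p = 0.458) and 0.05 (adjusted p = 0.755), against -1.16 and -1.34 for Sall2. The neighbours of Sall1 with counts, Rps6-ps2 and Gm5356, had 20 and 7 counts over all libraries and were not tested.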
